A study of Mus musculus with 3 samples.

Results

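Lyve1 and 7 genes that surround it in lymphatic and scavenger biology were examined in endothelial cells (ECs) of the adult mouse lung. The set held the lymphatic genes Lyve1, Prox1, Pdpn, Mmrn1 and Reln, the scavenger receptors Stab1 and Stab2, and the hyaluronan receptor Cd44, which are 8 of the 24346 genes in the deposited table. The members were selected on the levels in these same libraries, because Lyve1 was high while Prox1 was near 0, so their levels are given as a description with no test.

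The data were 3 RNA sequencing libraries, S38, S44 and S52, of 1 group, ECs of wild type C57BL/6J lung taken fresh from the tissue with no culture. The mice were males 6 to 8 weeks old. By the study's methods a VE-cadherin antibody was injected into the circulation before the organs were taken, and the dissociated cells were stained for CD31, CD45 and podoplanin before sorting. The methods give the same antibodies for lung as for kidney, whose sorted ECs the study calls CD45- and podoplanin- non-lymphatic cells, so the product of one member, Pdpn, was itself a sort marker. Nothing in the labels says whether the 3 libraries came from separate animals, so the spread between them may be technical, and there is no second condition to compare them with.

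Lymphatic capillaries are lined by ECs that take their identity from the transcription factor PROX1, which is needed to set up and to keep the lymphatic state. LYVE1 is a membrane receptor for hyaluronan, the large sugar polymer of the extracellular matrix. It is best known as a marker of lymphatic capillaries but is also made by sinusoidal ECs of the liver, by some tissue macrophages and by blood ECs of the lung. STAB1 and STAB2 are large related scavenger receptors of sinusoidal ECs, and STAB1 is also made by macrophages.

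The values are FPKM, fragments per kilobase of transcript scaled to sequencing depth, a unit that allows levels of genes of different length to be compared. From the steps between the lowest values, an approach adopted once the values were known, the libraries were estimated to hold 37600000 (S38), 38600000 (S44) and 34200000 (S52) fragments. The general endothelial markers were high in all 3 libraries, with Pecam1, which encodes CD31, at 1125, 1216 and 1164 FPKM and Cdh5, which encodes VE-cadherin, at 877, 978 and 908 FPKM. S52 stood apart from the other libraries in markers of platelets, leukocytes and alveolar type 2 cells, and their values are given with the members below.

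Lyve1 was among the most abundant transcripts of these cells. Its level was 539 FPKM in S38 and 597 in S44 against 390 in S52, with a mean of 509 ± 107 (SD, n = 3). This placed Lyve1 at rank 205 of 24346 genes, above 99.2% of them. All 3 libraries were high, S52 was the lowest, and the highest library was 1.53-fold above the lowest. In bulk RNA, fewer cells that express a gene and less RNA per cell cannot be told apart, so this level may come from many cells or from fewer with more transcript each. S52 was also the lowest in the summed level of several marker lists. Alveolar type 2 genes summed to 3756, 3156 and 760 FPKM and platelet genes to 1923, 1558 and 48.6 FPKM. Macrophage genes summed to 1091, 835 and 186 FPKM. Most of this was Lyz2, at 1047, 780 and 166 FPKM, which alveolar type 2 cells also make. The blood endothelial sum was lowest in S52 as well, at 5409, 5991 and 5323 FPKM. The part of these cell types in the Lyve1 level was not tested. Lyve1 lies at chr7:110850607-110863239 on the minus strand (GRCm38) as a gene of 6 exons with a longest transcript of 2893 bp. No exon of another annotated gene overlaps it and 0 of its 2866 windows of 51 bases, the read length, occurred in another gene.

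Prox1, the transcription factor of lymphatic identity, had levels of 0.132 (S38), 0.173 (S44) and 0.598 FPKM (S52). These levels correspond to an estimated 39, 52 and 158 fragments over a transcript of 7913 bp, above the 0.0103, 0.0100 and 0.0113 FPKM that 3 fragments would give in each library. Prox1 was therefore low but detectable in each library, where such limits cover counting error only. S52 was the highest library and did not overlap with the others, at 3.91-fold their mean, and the mean was 0.301 ± 0.258 FPKM over all 3 libraries and 0.153 FPKM without S52. The ratio of Lyve1 to Prox1, which the choice of genes used, was 4075 and 3445 in S38 and S44 but 653 in S52. A stretch of 133 exonic bases of Prox1, which lies at chr1:190118035-190170714 on the minus strand, overlaps the antisense gene Prox1os. The libraries did not keep strand, so reads in this stretch cannot be assigned to either gene.

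**Figure D1:**
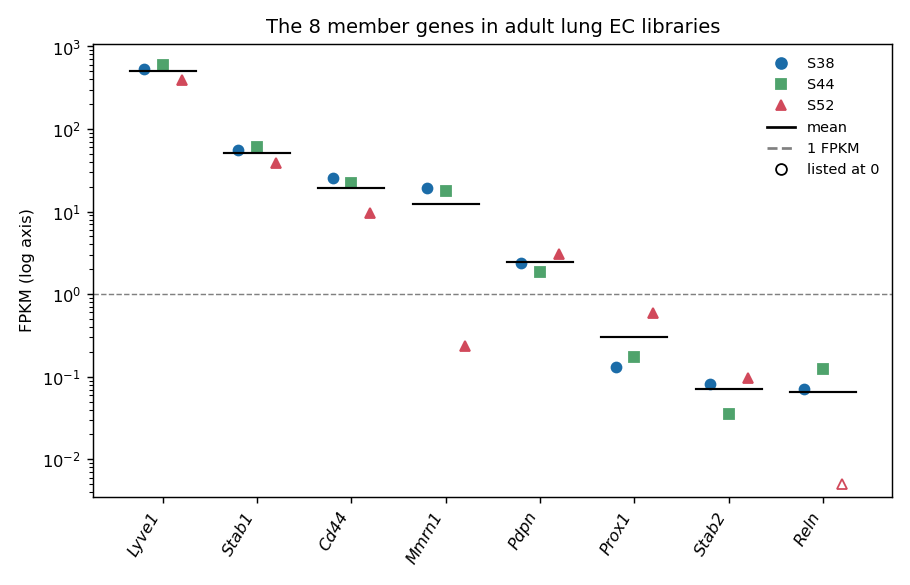
FPKM (log axis) of the 8 member genes in libraries S38 (circles), S44 (squares) and S52 (triangles), with black lines at the mean of the 3, an open symbol at the bottom for a value listed at 0, and a dashed line at 1 FPKM. Lyve1 sits at 390 to 597 FPKM and Prox1 at 0.132 to 0.598 FPKM, and the S52 symbol of Mmrn1 lies far below the other 2.

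Pdpn encodes podoplanin, a surface glycoprotein of lymphatic ECs and of alveolar type 1 cells that binds CLEC-2 on platelets. Its level was 2.39 (S38), 1.84 (S44) and 3.09 FPKM (S52), with a mean of 2.44 ± 0.629 (SD, n = 3). These levels rest on an estimated 150, 118 and 174 fragments. Pdpn was low in every library, with S52 the highest, and its order across the libraries was S52, S38 and S44. The alveolar type 1 marker Ager, encoding the receptor RAGE, was at 43.3, 33.4 and 66.0 FPKM. A second marker of these cells, Rtkn2, was at 0.851, 0.149 and 3.07 FPKM. Both followed the same order as Pdpn, although Hopx and Clic5, the highest of the alveolar type 1 list, were at 294, 332 and 201 FPKM and at 215, 213 and 208 FPKM. All 7 alveolar type 1 genes summed to 576, 592 and 490 FPKM. Their median log2 ratio of S52 to the mean of S38 and S44, on FPKM + 1 as for every log2 ratio below, was −0.04. The part of alveolar type 1 RNA in the Pdpn level was not tested. Pdpn lies at chr4:143267431-143299564 on the minus strand, and 0 of its 1813 read-length windows were shared with another gene.

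Reln encodes reelin, a large secreted glycoprotein made by lymphatic ECs. S38 held 0.0707 FPKM of it and S44 0.124 FPKM, and it was listed at 0 in S52. The estimated fragments were 31, 55 and 0, and a count of 0 in S52 allows up to 0.00761 FPKM. Reln was thus near 0 in all 3 libraries, and the mean was 0.0649 FPKM over all of them and 0.0354 FPKM without S44. Reln spans chr5:21884454-22344702 on the minus strand, and 246 of its exonic bases overlap the gene Gm10475 on the other strand. A share of 0.858% of its read-length windows occurred in other genes.

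Mmrn1 encodes multimerin 1, a protein of lymphatic ECs that is also stored in platelets. Its level was 19.4 FPKM in S38 and 17.6 in S44 but 0.236 in S52, for an estimated 3158, 2935 and 35 fragments. S38 and S44 were alike, and their mean was 78.2-fold above S52, the widest gap between libraries of the 7 members measured above 0 in each. The log2 ratio of S52 to the others was −3.98 for Mmrn1, and 91 of the 11770 genes that averaged 1 FPKM or more (0.773%) had a ratio as low. The mean of 12.4 ± 10.6 FPKM (SD, n = 3) describes none of the libraries, and the mean without S52 was 18.5 FPKM. Mmrn1 lies at chr6:60924976-60989378 on the plus strand and shares 0 of its 5866 read-length windows.

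Platelet transcripts moved between the libraries with Mmrn1. The platelet chemokine Pf4 had 329 (S38), 284 (S44) and 3.76 FPKM (S52), and the ratio of Mmrn1 to Pf4 was 0.0590, 0.0619 and 0.0628. Of the 11573 genes that averaged 1 FPKM or more with no value at 0, Pf4 had the most even ratio to Mmrn1 across the 3 libraries, an order looked up with the values known. Ppbp, the most abundant platelet chemokine here, was at 1054, 778 and 16.0 FPKM and was the 10th most even. The integrin subunit Itga2b was at 149, 148 and 9.54 FPKM, which left its ratio to Mmrn1 lower in S52 than in the other libraries, at 0.130, 0.119 and 0.0248. All 7 platelet genes were lowest in S52, beside 46.3% of all genes that averaged 1 FPKM or more. Their log2 ratios ran from −6.01 to −2.23 with a median of −3.98, beside a median of −0.08 over all genes at that level. On FPKM without a pseudocount, the mean of S38 and S44 was 78.2-fold above S52 for Mmrn1. For the platelet genes this fold ran from 6.31 for Gp1bb to 81.5 for Pf4, with 19.1 for Treml1, the gene at the list median. The summed level of the list was 1923, 1558 and 48.6 FPKM. The part of platelet RNA in the Mmrn1 level was not tested.

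The other genes of lymphatic ECs were described from a list of 15, which holds several genes that blood ECs also use. A mean of at least 1 FPKM was reached by 11 of the 15, beside 48.3% of all genes, 9 reached it in every library, and 4 were listed at 0 in at least 1 library. The list's median level was 5.30 (S38), 5.32 (S44) and 2.40 FPKM (S52). The highest 3 by mean were Gata2 and Sox18, encoding transcription factors of blood and lymphatic ECs, at 100.4 ± 5.06 and 52.1 ± 4.59 FPKM, and Ackr2, a scavenger of inflammatory chemokines, at 57.1, 64.3 and 28.1 FPKM. Flt4 encodes VEGFR3, the receptor for VEGF-C on lymphatic ECs that capillary blood ECs can also make, and it was at 23.7, 23.8 and 19.8 FPKM. The receptor gene Flt4 was thus measured at similar levels in all 3 libraries while Prox1 stayed below 1 FPKM.

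Ackr4, a scavenger of the chemokines CCL19 and CCL21, was at 20.5 ± 4.09 FPKM (SD, n = 3) and Itga9, an integrin subunit of lymphatic valves, at 5.38 ± 0.0699 FPKM. The venous and lymphatic factor Nr2f2 was at 2.76 ± 0.372 FPKM and overlapped Pdpn. Nrp2, a co-receptor for VEGF-C, was at 5.43, 5.32 and 2.40 FPKM, Fxyd6 was at 5.23, 4.33 and 1.82 FPKM, and Thy1 at 2.35, 1.90 and 0.205 FPKM. These 3 were among the 10 genes of the 15 that were lowest in S52, as Lyve1, Stab1, Cd44 and Mmrn1 were. S52 was the lowest library for 46.3% of all genes that averaged 1 FPKM or more. Tbx1 and Nts, which are among the 10, averaged less than that. Ccl21a encodes the chemokine CCL21, which lymphatic ECs secrete to guide dendritic cells, and was at 9.41 and 10.3 FPKM in S38 and S44 but listed at 0 in S52. Ccl21a has near-identical copies in the mouse genome, so its value is uncertain.

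The remaining 4 genes of the list stayed under 1 FPKM on average. Foxc2, a transcription factor of lymphatic valves, had 0.0410 FPKM in S38 and 0.607 in S52 and was listed at 0 in S44, so that like Prox1 it was highest in S52. The tight junction gene Cldn11 was at 0.0460, 0.179 and 0.137 FPKM. The T-box transcription factor gene Tbx1 was at 0.356, 0.409 and 0 FPKM and the neuropeptide gene Nts at 1.83, 0.101 and 0 FPKM. No library was thus high in these 4 genes together, and Nts in S38 was the only value above 1 FPKM.

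Genes for lymphatic growth signals were measured in the same cells. Vegfc and Figf, the older symbol of Vegfd, encode the ligands of VEGFR3 and were at 29.7 ± 4.15 and 7.68 ± 0.855 FPKM (SD, n = 3). Vegfc was higher than Figf in 3 of 3 libraries with no overlap. Ccbe1 and Adamts3 encode the cofactor and the protease that process VEGF-C, and were at 0.839, 0.279 and 0.521 FPKM and at 0.0461, 0.0103 and 0.0673 FPKM. Both ligand genes were therefore above 1 FPKM in every library, and both processing genes were below it.

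**Figure D2:**
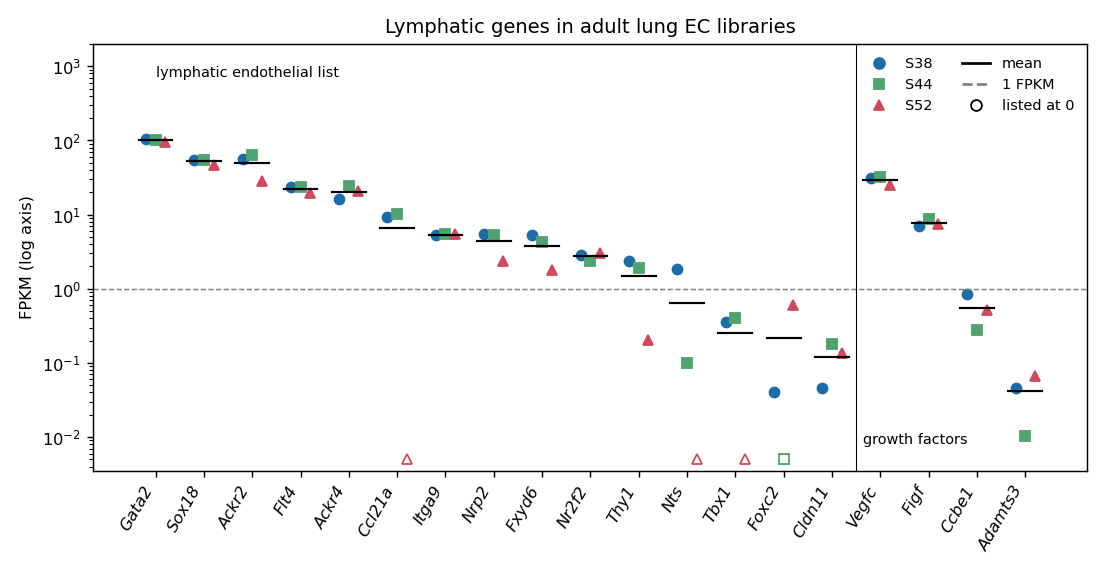
FPKM (log axis) of the 15 genes of the lymphatic endothelial list and of 4 lymphatic growth factor genes in S38, S44 and S52, with lines at the mean, open symbols for values listed at 0 and a dashed line at 1 FPKM. Of the 15 genes, 11 have a mean of at least 1 FPKM, and Ccl21a, Nts and Tbx1 are listed at 0 in S52.

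Stab1 was the second most abundant member. Its level was 55.0 FPKM in S38 and 60.5 in S44 against 38.9 in S52, with a mean of 51.5 ± 11.2 (SD, n = 3) and rank 1696 of 24346. The sums of alveolar type 2, platelet and macrophage genes given with Lyve1, the last mostly Lyz2, were likewise lowest in S52. Their part in the Stab1 level was not tested. The order of the libraries was that of Lyve1, and the ratio of Lyve1 to Stab1 was 9.80, 9.88 and 10.0. This ratio differed by 1.02-fold between the highest and the lowest library, whereas the median over the 11573 genes set against Lyve1 was 1.66-fold. Stab1 was the 18th most even of those genes, a place looked up with its values known and that rests on 3 libraries.

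Stab2, the paralog of Stab1, was near 0. Its levels were 0.0825 (S38), 0.0352 (S44) and 0.0958 FPKM (S52), with an estimated 25, 11 and 26 fragments and a mean of 0.0712 ± 0.0318 (SD, n = 3). Stab1 was 667-, 1717- and 406-fold above Stab2, so the paralogs were far apart in every library. Both genes have 69 exons in their longest transcripts, of 7999 bp for Stab1 and 8228 bp for Stab2, and they share no read-length window with each other. Stab1 lies at chr14:31139013-31168641 and Stab2 at chr10:86841198-87008025, both on the minus strand of GRCm38. A stretch of 112 exonic bases of Stab1 overlaps Nt5dc2 and 141 of Stab2 overlap Gm16268, both on the other strand.

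The sequences before the start of each Stab gene are shown because these paralogs differ so widely in level. Each is the 167 bases before the GENCODE start, 5′ to 3′ on the minus strand, taken from the RefSeq promoter table for GRCm38.p6. Capitals mark GGAA or TTCC, the core letters of ETS family sites on either strand, a family that includes endothelial factors such as ERG. Stab1 is at chr14:31168642-31168808 and Stab2 at chr10:87008026-87008192.
Stab1: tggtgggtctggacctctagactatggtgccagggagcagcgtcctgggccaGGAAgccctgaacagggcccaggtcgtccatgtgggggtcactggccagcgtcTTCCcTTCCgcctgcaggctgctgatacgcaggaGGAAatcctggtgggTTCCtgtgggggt
Stab2: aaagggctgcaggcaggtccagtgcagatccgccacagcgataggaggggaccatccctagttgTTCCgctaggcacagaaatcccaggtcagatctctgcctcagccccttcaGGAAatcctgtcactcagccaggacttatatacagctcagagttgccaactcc
The Stab1 window held 5 such matches and the Stab2 window 2. Among 32851 RefSeq promoters cut to the same length, 84.2% held at least 1, the median was 2, and the middle part from the 10th to the 90th percentile ran from 0 to 4. A match is a description of letters and not a bound site. Those promoters were cut just before the RefSeq start. The GENCODE start of Stab2 lies 83 bases before that of RefSeq, so its window lies further upstream than theirs. Other windows would give other counts.

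CpG content of the full 300-base windows, 250 bases before to 50 after the RefSeq start, also differed among the 7 members that matched the table. Reln had 47 CpG dinucleotides and the 2 starts of Prox1 had 25 and 14. Pdpn and Stab1 had 7, Cd44 had 6, Stab2 had 4 and Mmrn1 had 3, beside a median of 7 over all promoters. The members richest in CpG were thus Reln and Prox1, both below 1 FPKM here, but Stab2, with 4, was below 1 FPKM as well.

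Lyve1 and Stab1 were then set beside the 16 genes of the blood endothelial and lung capillary and venous lists. Lyve1 was 0.479, 0.491 and 0.335 times Pecam1 and 0.615, 0.611 and 0.430 times Cdh5 in S38, S44 and S52. Relative to these 2 genes it was lowest in S52. The ratio of Lyve1 to Kdr was 1.42, 1.66 and 1.65. That of Lyve1 to Cldn5 was 0.363, 0.345 and 0.379, so S52 was the lowest for neither. Kdr and Cldn5 were, however, the only 2 of the 8 blood endothelial genes that were themselves lowest in S52. Their log2 ratios of S52 to the others were −0.64 and −0.65, beside −0.54 for Lyve1. Tek had 0.08, Egfl7 0.26, Emcn 0.66 and Erg 0.72. Relative to each of these Lyve1 was lower in S52 than in the mean of S38 and S44. Kdr, encoding the VEGF receptor VEGFR2, was at 380, 360 and 237 FPKM. The carbonic anhydrase gene Car4, a marker of one lung capillary type, was at 855, 959 and 582 FPKM. Both had their lowest library in S52, as did Ednrb at 143, 155 and 75.3 FPKM and Slc6a2 at 69.4, 81.7 and 23.2 FPKM. Gpihbp1, which anchors lipoprotein lipase on capillaries, was at 661, 663 and 886 FPKM and Plvap, of fenestrae and caveolae, at 815, 976 and 1034 FPKM, so that S52 was the highest for both. The highest genes of the blood endothelial list were Cldn5 at 1486, 1732 and 1029 FPKM, Pecam1, and Egfl7 at 1027, 1127 and 1287 FPKM. The endothelial genes did not move together, and Lyve1 and Stab1 lay with those that were lowest in S52. Over the 8 capillary and venous genes 4 were lowest and 3 highest in S52, and over the 8 blood endothelial genes 2 were lowest and 3 highest. Of all genes that averaged 1 FPKM or more, 46.3% were lowest in S52.

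**Figure D3:**
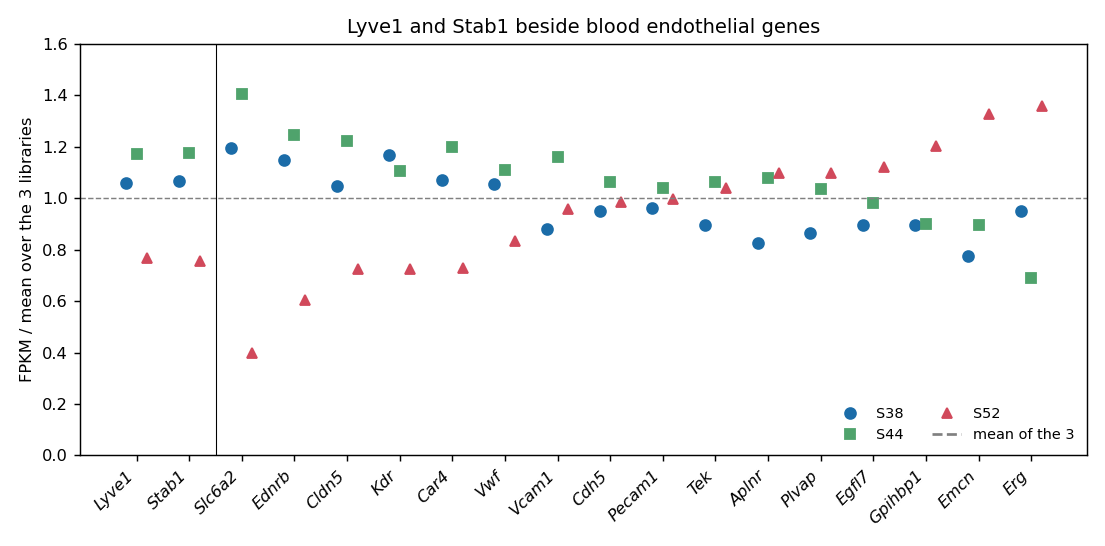
FPKM of each gene divided by its mean over the 3 libraries (dashed line at 1) for Lyve1 and Stab1, left of the vertical line, and for the 16 genes of the blood endothelial and lung capillary and venous lists, ordered by the S52 value. Lyve1 and Stab1 show nearly the same 3 relative levels, with S52 lowest, while S52 is highest for genes such as Gpihbp1 and Plvap.

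The genes nearest to Lyve1 in level and pattern were found from the largest absolute difference in log2(FPKM + 1) over the 3 libraries, among 11769 genes that averaged 1 FPKM or more. They were Crip1 with a largest difference of 0.13, Laptm4a with 0.17, Ctsd with 0.19, Cav2 with 0.26 and Psap with 0.28. Crip1, encoding a small LIM protein, was at 516, 652 and 412 FPKM. The lysosomal protease gene Ctsd was at 503, 523 and 406 FPKM and Cav2, encoding caveolin 2, at 522, 497 and 435 FPKM. Laptm4a and Psap also encode lysosomal proteins and were at 516, 529 and 417 FPKM and at 458, 514 and 475 FPKM. Crip1, Laptm4a, Ctsd and Cav2 had their lowest value in S52 and Psap had its lowest in S38. Each gene was picked for being near Lyve1 in every library, so a low S52 was partly set by the choice.

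Cd44 encodes the main hyaluronan receptor of leukocytes and is also made by many other cells. Its level was 25.5 FPKM in S38 and 22.2 in S44 against 9.52 in S52, with a mean of 19.1 ± 8.44 (SD, n = 3). S52 was the lowest, 2.50-fold below the mean of the others, a wider gap than the 1.46-fold of Lyve1. The ratio of Lyve1 to Cd44 accordingly was 21.1, 27.0 and 41.0. Ptprc, which encodes the pan-leukocyte antigen CD45, was at 4.30, 2.06 and 0.434 FPKM. It had the same order of libraries as Cd44, but the ratio of Cd44 to Ptprc was not constant, at 5.94, 10.8 and 22.0. The list of other leukocyte genes summed to 48.8, 57.9 and 6.95 FPKM. Its highest genes were the neutrophil alarmins S100a9, at 20.5, 29.1 and 2.58 FPKM, and S100a8, at 13.6, 17.8 and 0.251 FPKM. The B cell gene Cd79a followed at 8.70, 7.32 and 3.17 FPKM. S100a9 and S100a8 were highest in S44, unlike Cd44, while Cd79a had the order of Cd44. The part of leukocyte RNA in the Cd44 level was not tested. Cd44 lies at chr2:102811141-102901665 on the minus strand with 8 annotated basic transcripts, which the gene-level values do not separate.

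Among other genes of hyaluronan turnover, 9 of 18 reached a mean of 1 FPKM, a share near the 48.3% of all genes, and Hapln2 and Habp2 were listed at 0 in all 3 libraries. The highest were the hyaluronidase gene Hyal2 at 148 ± 7.39 FPKM, Tmem2, whose product cleaves hyaluronan at the cell surface, at 71.3 ± 10.9 FPKM, and the hyaluronidase gene Hyal1 at 32.5 ± 4.01 FPKM (SD, n = 3). Lyve1 was above all of them in every library with no overlap. The hyaluronan synthase genes were low, with Has1 at 3.20, 2.49 and 1.87 FPKM and Has2 at 0.155, 0.332 and 0.230 FPKM. Has3 was at 0.338, 0.182 and 0 FPKM. Lyve1, Cd44, Hyal2, Tmem2 and Hyal1 were thus above each synthase gene in every library.

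Among the other scavenger and endocytic receptors, 13 of 21 reached a mean of 1 FPKM, beside 48.3% of all genes, with a median of 2.61 (S38), 2.40 (S44) and 1.55 FPKM (S52). The fatty acid and lipoprotein receptor Cd36 was at 1510 ± 6.73 FPKM, the HDL receptor Scarb1 at 158 ± 18.0 FPKM and the lysosomal membrane gene Scarb2 at 77.9 ± 6.09 FPKM (SD, n = 3). Stab1 was below these 3 in every library and above the other 18 by mean. In contrast to Stab1, Cd36 was nearly the same in the 3 libraries. The scavenger receptors shared with macrophages ranged widely. Cd68 was at 17.0, 27.4 and 16.7 FPKM, while Msr1 was at 0.0981, 0.411 and 0 FPKM, Marco at 0.461, 0.561 and 0 FPKM and Cd163 at 0.0371, 0.114 and 0.00691 FPKM. The mannose receptor gene Mrc1, shared by macrophages and sinusoidal ECs, was at 0.877, 0.743 and 0.638 FPKM.

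**Figure D4:**
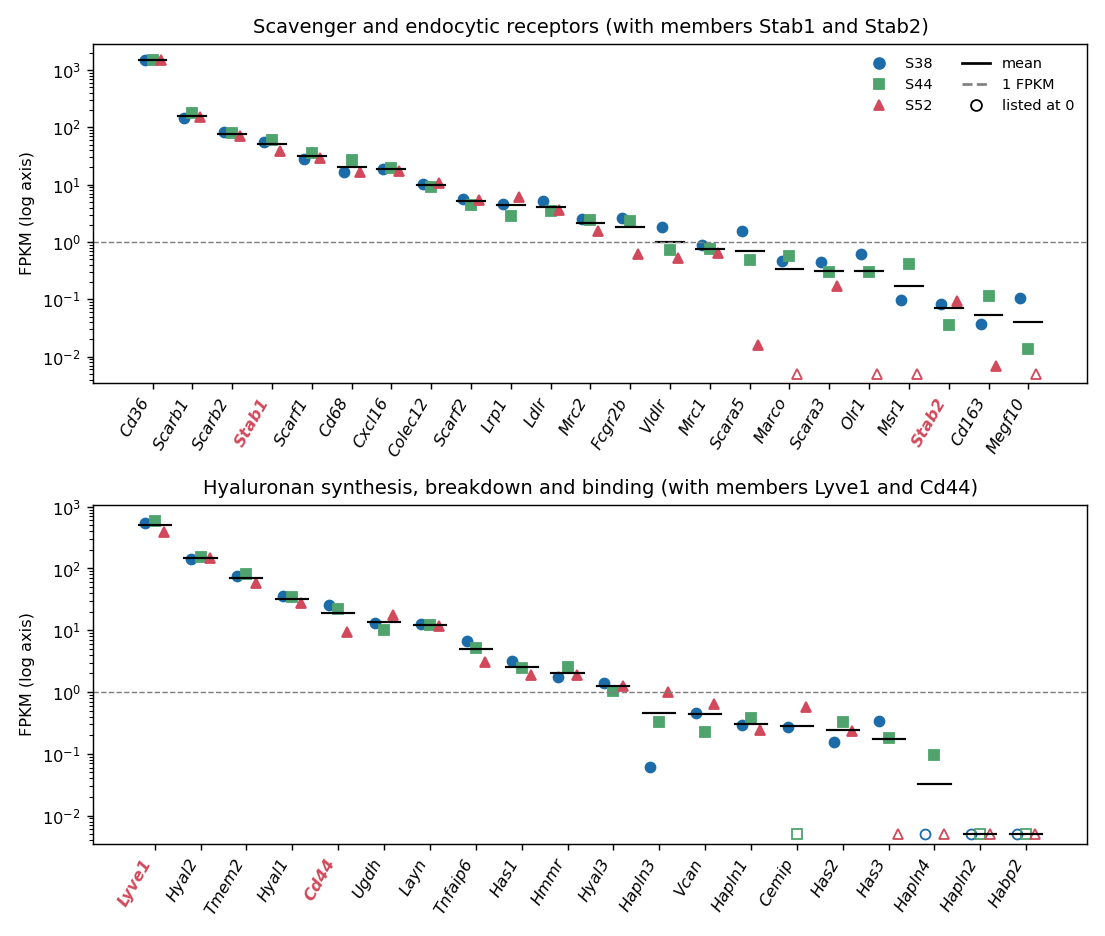
FPKM (log axis) of scavenger and endocytic receptors with Stab1 and Stab2 (top) and of hyaluronan genes with Lyve1 and Cd44 (bottom) in S38, S44 and S52, ordered by mean (black lines), with open symbols for values listed at 0 and a dashed line at 1 FPKM. Stab1 is in the 4th place of its panel with a mean of 51.5 FPKM and Stab2 is near the end, and Lyve1 heads the lower panel at 509 FPKM.

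Lyve1 and Stab1 are shared with macrophages and with sinusoidal ECs, so the lists for these cells were read beside them. The macrophage genes summed to 1091, 835 and 186 FPKM, most of it Lyz2 at 1047, 780 and 166 FPKM, which alveolar type 2 cells also make. A mean of 1 FPKM was reached by 7 of the 14, beside 48.3% of all genes, and the next highest were Cd68 and F13a1, which platelets also hold, the latter at 15.9, 14.1 and 1.86 FPKM. Folr2, a marker of LYVE1+ macrophages, was at 0.171, 0.280 and 0.0319 FPKM, and the receptor Csf1r was at 1.25, 1.85 and 1.30 FPKM. Siglecf, Marco and Itgax were listed at 0 in S52, but they reached at most 0.857 FPKM in S38 and S44. Cd68, at 17.0, 27.4 and 16.7 FPKM, and Csf1r were in S52 close to their S38 levels. The S52 log2 ratios of the 14 macrophage genes ran from −2.48 to −0.10, with a median of −0.58. Over the list's genes that averaged 1 FPKM or more the median was −1.63, beside −0.08 over all genes at that level. The pseudocount shrinks the ratios of genes below 1 FPKM, so the list median rests partly on it. Lyve1 had −0.54 and Stab1 −0.56. The 3 complement genes C1qa, C1qb and C1qc had ratios of −1.63, −1.94 and −1.42. Of the liver sinusoidal genes 2 of 8 reached a mean of 1 FPKM, against the same 48.3% of all genes, Clec4g at 7.56, 8.52 and 3.63 FPKM and Fcgr2b at 2.61, 2.35 and 0.613 FPKM, Mrc1 followed them, and Cd209b was listed at 0 throughout. The part of macrophage RNA in the levels of Lyve1 and Stab1 was not tested.

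Across the whole set, 5 of the 8 members (62.5%) had a mean of at least 1 FPKM, beside 48.3% of all genes. Pdpn was the member just above this threshold at 2.44 FPKM and Prox1 the one just below it at 0.301 FPKM. In order of mean the members ran from Lyve1 through Stab1, Cd44, Mmrn1, Pdpn, Prox1 and Stab2 to Reln. Neighbours did not overlap between libraries in 4 of the 7 steps, which were Lyve1 over Stab1, Stab1 over Cd44, Pdpn over Prox1 and Prox1 over Stab2. Cd44 and Mmrn1 overlapped although Cd44 was the higher in 3 of 3 libraries. Mmrn1 and Pdpn, and Stab2 and Reln, overlapped and changed places in 1 library each, S52 for the former and S44 for the latter.

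The members also differed in how they varied between libraries. Of the 5 with a mean of at least 1 FPKM, Cd44 and Mmrn1 differed by more than 2-fold between the highest and the lowest library, beside 20.1% of all such genes. S52 was the lowest library for 4 of the 5, Lyve1, Stab1, Cd44 and Mmrn1, beside 46.3% of all such genes. Reln, listed at 0 in S52, was also lowest there, and Pdpn, Prox1 and Stab2 were highest in S52. The log2 ratios of S52 to the others were −0.54 for Lyve1, −0.56 for Stab1, −1.24 for Cd44, −3.98 for Mmrn1 and 0.39 for Pdpn. Platelet genes had a median of −3.98, alveolar type 2 genes of −2.04, fibroblast genes of −0.11 and blood endothelial genes of 0.04. The equal values of Mmrn1 and the platelet median rest on the pseudocount. Without it the mean of S38 and S44 was 78.2-fold above S52 for Mmrn1 and 19.1-fold for Treml1, the platelet gene at the median. The fibroblast genes summed to 75.7, 57.6 and 44.2 FPKM. The surfactant genes Sftpc, Sftpb and Sftpa1 led the alveolar type 2 list, with Sftpc at 3333, 2862 and 658 FPKM, and Dcn, Col1a2 and Pdgfra led the fibroblast list, with Dcn at 47.4, 35.5 and 19.8 FPKM. The mesothelial genes were led by Krt19, which epithelial cells also make, at 11.9, 8.19 and 10.1 FPKM, and Msln and Upk3b were listed at 0 in S52. Their part in the levels of the members was not tested.

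**Figure D5:**
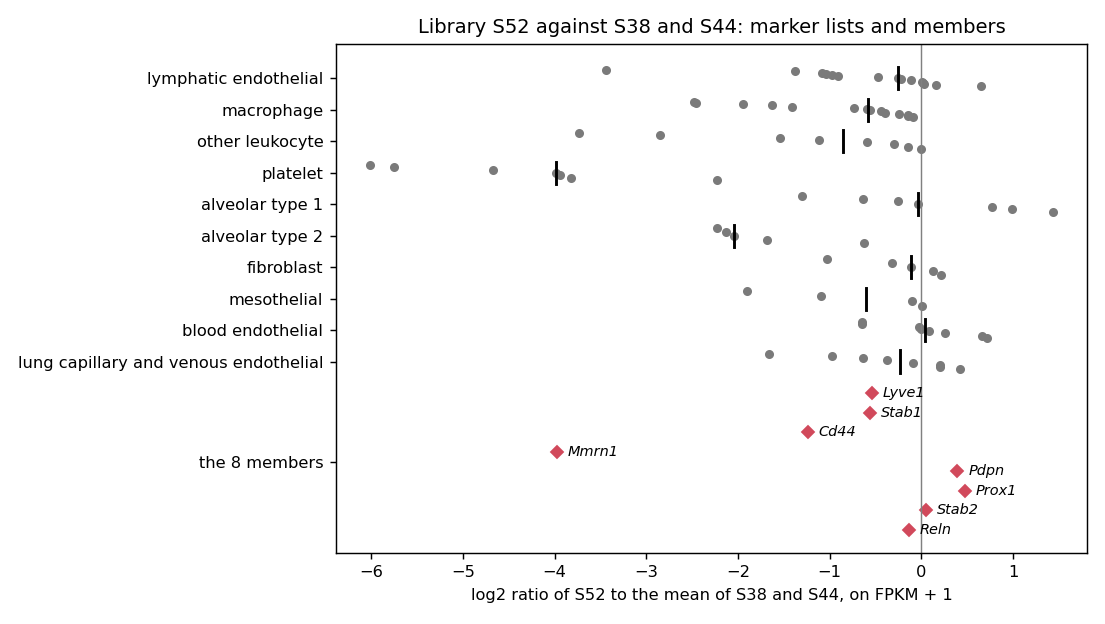
Log2 ratio of S52 to the mean of S38 and S44, on FPKM + 1, for each gene of 10 marker lists (grey points, black bars at the list median) and for the 8 members (red diamonds), with a line at 0. Mmrn1 and the platelet median both lie at −3.98, and Lyve1 and Stab1 lie at −0.54 and −0.56. The added 1 FPKM shrinks the change of Mmrn1, which was at 0.236 FPKM in S52. On FPKM alone, the mean of S38 and S44 was 78.2-fold above S52 for Mmrn1. It was 19.1-fold above for Treml1, the platelet gene at the list median.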

How the data were processed

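RNA from sorted lung ECs was made into poly-A, non-stranded libraries and sequenced as paired reads of 51 bases. The authors deposited 1 table of FPKM values for 24346 gene symbols in the 3 libraries, with mm10 as the build. The submitters' processing notes list bcl2fastq 2.17, FastQC 0.11.5, Trimmomatic 0.36, TopHat2 2.1.0 and Cufflinks 2.2.1, whereas the study's methods describe another aligner and counter, and the gene annotation is not given in the sources used here. FPKM are not counts and all libraries are of 1 condition, so no test was run. Means and SDs were computed with pandas 2.3.3 and numpy 2.4.6 in Python 3.11.15, and plots with matplotlib 3.10.9. A gene was called present at a mean of at least 1 FPKM, and log2 ratios used a pseudocount of 1, which understates the change of low genes.

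Fragments per library were estimated from whole-number steps among low values of transcripts of 800 to 4000 bp. Of 286, 385 and 188 such values in S38, S44 and S52, 79.0%, 77.1% and 77.1% lay within 0.15 of a whole fragment. In simulated depths for the 3 libraries on 7077 genes the largest error was 0.0638%. The simulation took transcript lengths as known, so it tests the search alone and cannot give the error in the real libraries. Gene positions and shared read-length windows came from GENCODE vM21, and promoters from the RefSeq table, which matched 7 of the 8 members. Limits for a count of 0 use 3 fragments.

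The members and gene lists were chosen with earlier results of these data known. The genes named were the members, both lymphatic lists, the 3 highest by mean of each other list and the 5 genes nearest to Lyve1. Other genes were chosen after their values were seen. One gene of the lymphatic endothelial list is not reported here and was left out of that list's counts and medians. Alternatives were other thresholds, averages, pseudocounts and rescalings, and leaving out each library.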

Additional observations from a re-analysis of the deposited data

How the results depend on the processing

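With each library rescaled to a sum of 1000000, the means were 372 FPKM for Lyve1, 37.6 for Stab1 and 1.80 for Pdpn, and the median of all genes present moved by −0.45 on the log2 scale. The deposited columns sum to 1153890, 1603596 and 1419351 FPKM. Under this rescaling the highest library of Stab2 was S38 (0.0715) and not S52 (0.0675), and under the other rescalings S52 was the lowest or the highest library for the same members as before. Of 92 alternatives for the members' levels and counts, 89 stayed within the spread between libraries or within 1.5 times the count. For Mmrn1 that spread is wide, and its geometric means, 6.77 FPKM with a pseudocount of 1 and 4.78 FPKM with 0.1, were well below its mean of 12.4 FPKM. Leaving out 1 of 3 libraries cannot move a mean by a whole SD, so those levels could not leave the spread. The mean of Prox1 still changed 1.97-fold without S52 and that of Reln 1.83-fold without S44. The number of members present was 6 at a threshold of 0.1 FPKM, and 4 at 3 FPKM, at 10 FPKM or when 1 FPKM was required in every library. Of the 7 members above 0 in every library, 4 differed by more than 2-fold between libraries, 1 without S52, and 2 with a pseudocount of 1. Neighbouring members without overlap numbered 4, 5 and 6 without S38, S44 and S52. Geometric means give no value for overlaps or for folds between libraries. Among lists, the median S52 ratio over genes averaging 1 FPKM or more, an alternative added after seeing the data, was −1.63 for macrophage and −1.54 for other leukocyte genes, in place of −0.58 and −0.85. No paired analysis was possible because there is 1 group and no test. With 3 libraries of 1 condition, depth limits Prox1, Stab2 and Reln, whose values rest on at most 158 estimated fragments. It likewise limits Pdpn, with 150, 118 and 174 estimated fragments, and Mmrn1 in S52, with 35.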
